A study of Mus musculus with 2 samples.

Results

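Chemokines are small secreted proteins that direct the movement of white blood cells, and their receptors are membrane proteins that couple to G proteins of the inhibitory class. The ligands are grouped by the spacing of their first cysteines into the CC, CXC, CX3C and XC families, and a further group of atypical receptors binds chemokines without the usual signal and removes or displays them. In bone and marrow the family is known for holding blood-forming cells in place through Cxcl12, for releasing neutrophils, and for drawing monocytes and osteoclast precursors to sites of injury.

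The genes described here are 52 chemokine ligand and receptor genes, read by 70 probe sets, out of 12393 genes that the array names by a single symbol. A gene was included when its symbol starts with Ccl, Cxcl, Ccr, Cxcr or Ackr followed by a digit or with Cx3c, or is Xcl1 or Xcr1. They comprise 31 ligands, 17 signalling receptors and 4 atypical receptors. The study measured total RNA from femur of C57BL/6 mice on 2 arrays, 1 for an allograft sample (bone moved between animals) and 1 for an autograft sample (bone moved within an animal). The sources used here do not give the time after grafting, the age, the donor strain, the graft procedure or the number of animals pooled. With 1 array per graft type no difference has a replicate check and no test was possible, so every ratio below describes this pair of arrays.

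A value is called above the floor when it is at or above 175.2, the median of the intensities of both arrays without control probe sets. By that measure 19 of the 52 genes were above the floor in both samples (36.5%), 2 on the allograft array alone, 2 on the autograft array alone and 29 on neither. Among all 12393 genes 57.3% were above the floor in both samples. On at least 1 array it was 63.2% of all genes and 44.2% of the 52. Ligands and signalling receptors differed in this respect, with 15 of 31 ligands but 2 of 17 signalling receptors, Ccr1 and Ccr2, above the floor in both samples. Of the atypical receptors Ackr1 and Ackr3 were above it on both. These shares depend on the number of probe sets, since the brightest stands for each gene. The 12393 genes were read by 20380 probe sets and the 52 by 70, so all genes had more chances to pass. With the dimmest probe set, 17 ligands and 2 receptors of the 52 were above the floor on at least 1 array, against 5367 of all genes. A value below the floor means that the probe set was not read above this level, not that the transcript was missing. With whole-tissue RNA, fewer cells of a type and less RNA per cell cannot be told apart. Marker lists of several tissues differed between the samples: the median log2 ratio was 0.59 over 8 skeletal muscle genes, 0.79 over 9 erythroid genes, -0.60 over 7 osteoblast genes, -0.71 over 6 cartilage genes and 0.10 over 5 osteoclast genes. After quantile normalization the osteoclast median was -0.21, and the other medians kept their sign. Members differed within these lists. Osteoblast genes ran from Alpl at -1.25 to Col1a1 at 2.70, and osteoclast genes from Ocstamp at -1.46 to Acp5 at 0.97. The part of these tissues in the readings of chemokine genes was not tested.

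None of the 23 genes above the floor on at least 1 array reached a 2-fold difference between the graft types. Over all 7833 genes above the floor on at least 1 array, a 2-fold difference was seen for 0.868% on the allograft side and for 0.753% on the autograft side. The scaling mattered at this edge: Cxcl2 just passed 2-fold under 4 other scalings, with a log2 ratio of at most 1.06, and quantile normalization put 0.984% of all genes on the allograft side and 0.486% on the autograft side. At 1.5-fold, 2 of the 23 genes were higher in the allograft sample, Cxcl2 and Ackr3, against 4.0% of all genes, and 2 were lower, Ccl12 and Ccr1, against 6.56%. The 23 log2 ratios of allograft over autograft had a median of -0.07 and ran from -0.75 to 0.95. All genes above the floor had a median of -0.08, an SD of 0.37 across genes, and a central 95% from -0.79 to 0.70. Of the 19 genes with a ratio rather than a bound, Cxcl2 and Ackr3 lay outside that range. With the floor at the 75th percentile their autograft values fell below it, which left bounds of at least 0.10 and 0.20. The bound of Ccl12 does not say on which side of its lower limit the gene lies. Over all genes above the floor 40.4% had ratios above 0 and 59.5% below 0, which is the background for each count of signs given here.

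**Figure D1:**
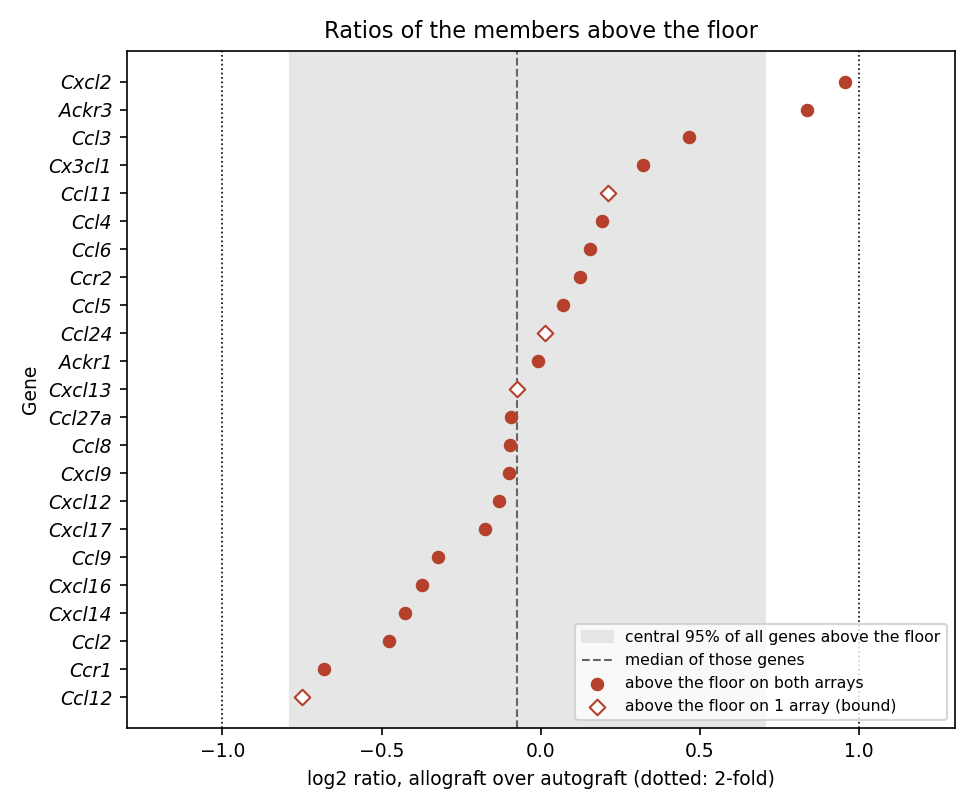
Log2 ratio of allograft over autograft (horizontal axis) for the 23 chemokine and receptor genes above the floor on at least 1 array, each a row, with filled circles for genes above the floor in both samples and open diamonds for bounds. The grey band is the central 95% of all genes above the floor. Cxcl2 (0.95) and Ackr3 (0.84) stand to its right, and no gene reaches the dotted 2-fold lines.

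The highest ratio of the family was that of a neutrophil-attracting CXC ligand. Cxcl2, which draws neutrophils through the receptor Cxcr2, read 602 on the allograft and 310.5 on the autograft array, a log2 ratio of 0.95 or 1.94-fold. Cxcl1, a close relative and a ligand of the same receptor, read 36.2 on the allograft and 145 on the autograft array. It was below the floor on both, so it has no ratio here. With the floor at the 25th percentile of intensities it had a log2 ratio of -1.52, as a bound, on the side opposite to Cxcl2. Cxcl5 (23.0 against 36.9) and Cxcl15 (75.5 against 58.7) were below the floor too, as was the receptor Cxcr2 (21.8 against 41.6). Cxcl2 was thus the single member of this group above the floor.

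Cxcl1 and Cxcl2 lie side by side in the genome, and the region before each start site holds the same 11-base stretch. The stretches shown are those of the ligands with a match to the NF-kB consensus, the site of a factor known to switch on inflammatory chemokine genes, in the 250 bases before the start site. They are from RefSeq (GRCm38.p6), written 5′ to 3′ on the gene's strand, with the match in capitals.
Cxcl2: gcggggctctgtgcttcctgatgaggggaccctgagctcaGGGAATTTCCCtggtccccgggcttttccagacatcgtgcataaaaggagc
Cxcl1: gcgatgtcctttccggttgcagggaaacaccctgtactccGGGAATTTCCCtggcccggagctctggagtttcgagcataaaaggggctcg
Ccl9: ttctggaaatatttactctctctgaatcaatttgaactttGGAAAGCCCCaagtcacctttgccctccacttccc
Ccl20: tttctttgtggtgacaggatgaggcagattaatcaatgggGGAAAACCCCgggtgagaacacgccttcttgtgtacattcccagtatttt

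The Cxcl2 stretch is chr5:90903762-90903852 on the plus strand and that of Cxcl1 is chr5:90891134-90891224 on the plus strand. Their capitals begin at -97 and -71 from the start site, and each run of 11 holds overlapping matches on both strands. The Ccl9 stretch, chr11:83578637-83578711 on the minus strand, has its match at -35, and that of Ccl20, chr1:83116646-83116735 on the plus strand, has it at -80. Promoters were listed for 21 of the 31 ligands, and 4 of their 24 promoters (16.7%) held a match on either strand, against 3.90% of all 32851 promoters. For receptors it was 3 of 19 promoters (15.8%), those of Ackr2, Ccr3 and Ccr6. The 4 ligands with a match did not share a reading: Cxcl2 was higher in the allograft sample, Ccl9 had a log2 ratio of -0.32, and Cxcl1 and Ccl20 (18.5 against 16.2) were below the floor. The letters TATAAA, on either strand, were in 33.3% of the ligand and 26.3% of the receptor promoters against 12.4% of all. The STAT letters TTCNNNGAA were in 8.33% and 10.5% against 7.02% of all. A match describes the letters and does not show binding.

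Genes of the neutrophil lineage were read on both arrays, although Cxcr2, the receptor of Cxcl2, was below the floor. All 11 neutrophil markers on the array were above the floor on both, and all 11 had ratios above 0, with a median log2 ratio of 0.39 and summed intensities of 51885 in the allograft and 39603 in the autograft sample. After quantile normalization 10 of the 11 were above 0. Among genes that can call up Cxcl2, Il1b, an inflammatory cytokine, read 672 against 512 (0.39), while Tnf (23.5 against 44.1) and Il6 (77.7 against 78.2) were below the floor. The part of neutrophil content in the Cxcl2 ratio was not tested.

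Cxcl12 is made by marrow stromal cells and osteoblasts and keeps blood-forming cells, B cell precursors and neutrophils in the marrow through Cxcr4. Its probe sets did not give the same direction. One read 3957 on the allograft and 4336.5 on the autograft array (log2 ratio -0.13), and the other read 3773 and 2841 (0.41). Ackr3, the atypical receptor that takes up Cxcl12, read 643.5 on the allograft and 361 on the autograft array, a log2 ratio of 0.84 or 1.78-fold. The name of its 1 probe set has the suffix for oligonucleotides shared between transcripts. Cxcr4 itself was below the floor in both samples (136 against 70.9). Markers of marrow stroma, the main source of Cxcl12, had 9 of 10 genes above the floor, 5 with ratios above 0 and 4 below, and a median of 0.04, which was -0.08 after quantile normalization. The stromal markers ran from Foxc1 at -0.715 to Adipoq at 1.15 (4839 against 2176). The stromal receptor Lepr was below the floor. Of 7 osteoblast markers above the floor 5 had ratios below 0.

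**Figure D2:**
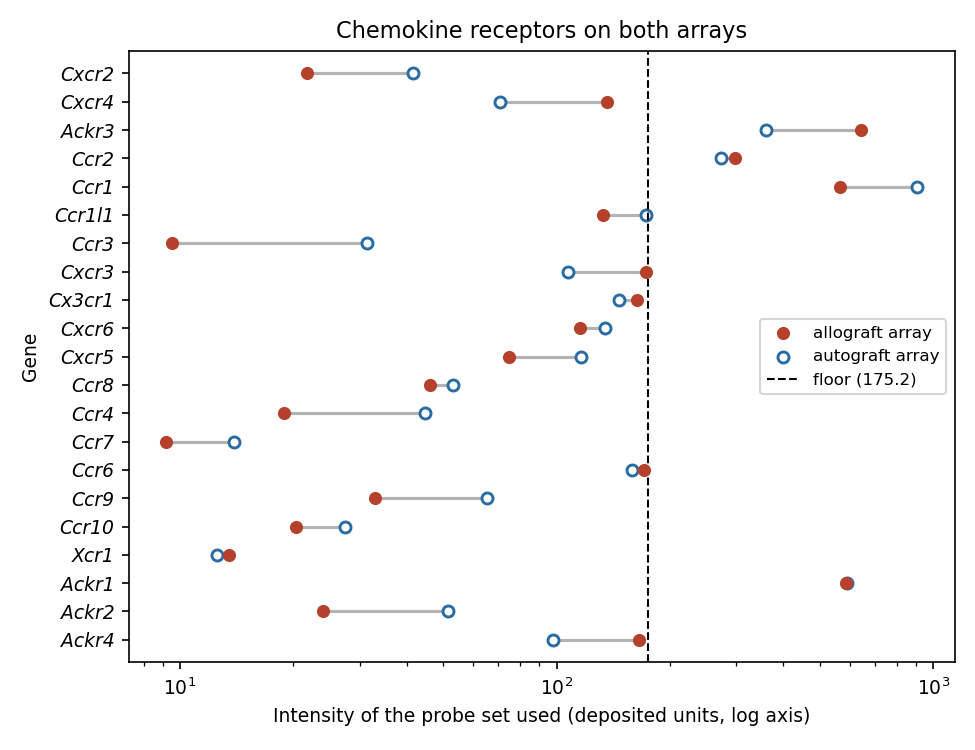
Intensity on a log axis of the probe set used for each of the 21 receptor genes (rows), filled for the allograft and open for the autograft array, with the floor of 175.2 dashed. Ackr3, Ccr2, Ccr1 and Ackr1 lie above the floor in both samples, and the other 17 lie below it on both. Points are comparable within a row, since probe sets differ in how strongly they read.

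Ccl2 and Ccl12, which attract monocytes, read lower on the allograft array, by 1 probe set each. Of the ligands of Ccr1 described below, which monocytes also carry, Ccl3, Ccl5 and Ccl6 were higher there and Ccl9 lower. Ccl2, the main monocyte attractant, read 226.5 on the allograft and 315 on the autograft array (log2 ratio -0.48). Ccl12, a mouse ligand of the same receptor, was above the floor in the autograft sample alone, at 148 against 295, so that the autograft was at least 1.68-fold higher. Ccl7, also a ligand of this receptor, was below the floor (117 against 130.2). The ligands of this receptor that were read above the floor were thus lower on the allograft array. Their receptor Ccr2, which marks inflammatory monocytes, stood at 298 against 273 (0.12) by the probe set used, and its other probe sets were below the floor. Ccl8, encoded in the same run of genes, read 4382 and 4688 (-0.10), nearly the same on both arrays.

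Ccl2, Ccl7, Ccl11, Ccl12, Ccl8 and Ccl1 form a run of neighbouring genes. Within it Ccl12 (-0.75 as a bound) and Ccl11 (0.21 as a bound), which are neighbours in this run, lay on opposite sides of 0. Neighbouring position was therefore not matched by a common ratio in this run. Monocyte and macrophage markers were above the floor in 12 of 12 cases, 7 with ratios above 0 and 5 below, with a median of 0.06. Their summed intensities were 34382 in the allograft and 30220 in the autograft sample. Csf1r, the receptor for the macrophage growth factor, stood at 0.65 and Cd68, a lysosomal protein of macrophages, at -0.55, so these markers gave no single direction beside the ligands.

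The inflammatory CC ligands Ccl3, Ccl4 and Ccl5 were above the floor in both samples. Ccl3, which acts through Ccr1, read 260.0 on the allograft and 188 on the autograft array, a log2 ratio of 0.47. Ccl4, a close relative of Ccl3, read 327 and 286 (0.19). Ccl5, which also attracts T cells, read 303 and 289 (0.07). For Ccl3, Ccl4 and Ccl5 the allograft array was higher, by 1.05 to 1.38-fold. Of the ligands described next, Ccl6 was higher there too and Ccl9 was lower.

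Ccl6 and Ccl9, mouse ligands of Ccr1 made by myeloid cells, read well above the floor and lay on opposite sides of 0. Ccl6 stood at 2871 against 2577 (0.16), with its second probe set at 1012 against 763 (0.41). Ccl9, which osteoclasts are known to make, stood at 3384 against 4229 (-0.32), with its second probe set at 465 against 564 (-0.28). The probe sets of each gene gave the same direction, so the split between these neighbours was present in both pairs of readings on the same arrays.

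Ccr1, the receptor that Ccl3, Ccl5, Ccl6 and Ccl9 share and that is carried by monocytes, neutrophils and osteoclast precursors, had the lowest ratio of the family members read in both samples. It read 565 on the allograft and 907 on the autograft array, a log2 ratio of -0.68 or 1.60-fold. Its second probe set read 137 and 87.8, under the floor each time. Ccr1l1, a gene beside Ccr1 and like it in sequence, was just below the floor (133 against 172). The receptor and its ligands therefore did not share a direction: 3 of the 4 ligands named for Ccr1 had ratios above 0.

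**Figure D3:**
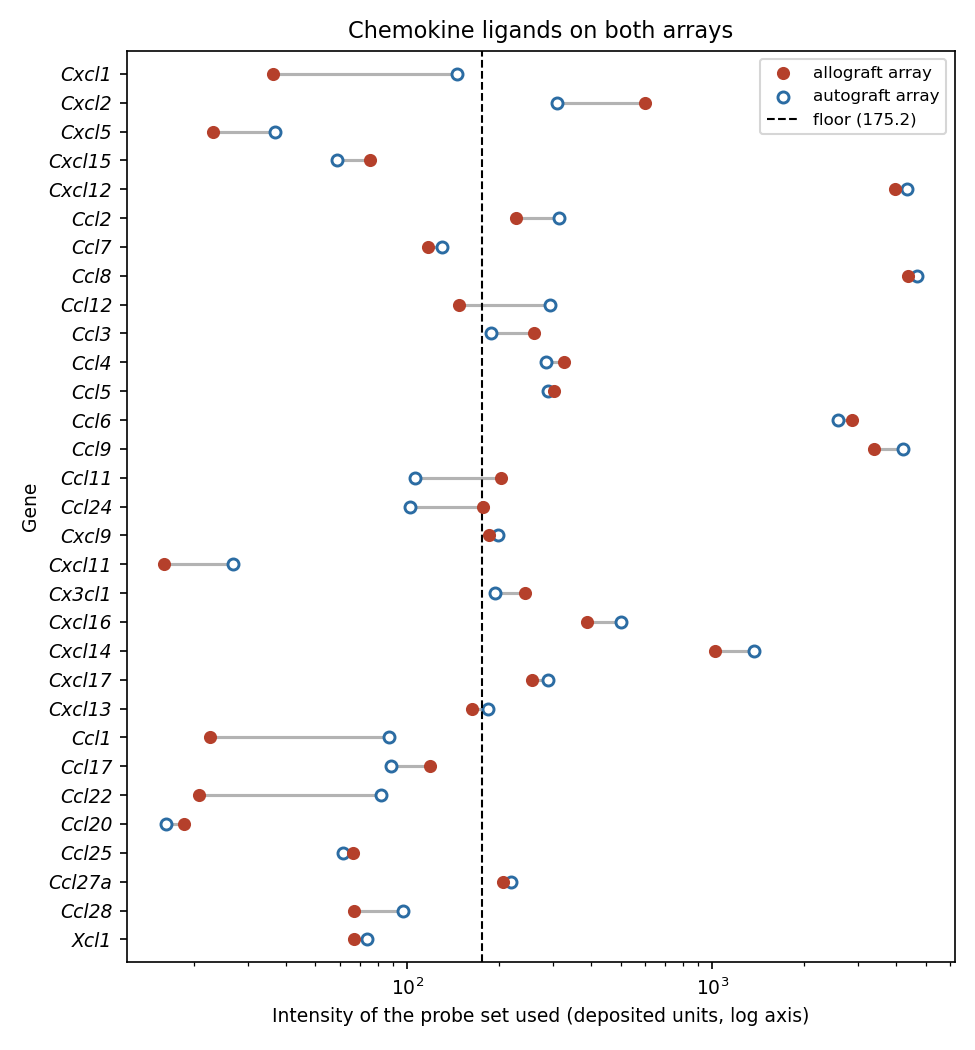
Intensity on a log axis of the probe set used for each of the 31 ligand genes (rows, ordered by receptor group), filled for the allograft and open for the autograft array, with the floor of 175.2 dashed. Cxcl2 is the ligand above the floor in both samples with the widest gap (602 against 310.5). Points are comparable within a row only.

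Both eotaxins, which attract eosinophils through Ccr3, passed the floor on the allograft array alone. Ccl11 read 203 against 106, so that the allograft was at least 1.16-fold higher. Ccl24 read 177 against 102, which puts the allograft value at the floor itself, and the bound is 1.01-fold. Ccr3 was below the floor (9.5 against 31.3). Of the eosinophil and basophil markers 4 of 8 were above the floor, 3 of them with ratios above 0 and a median of 0.85. These were Prg2 (2230.3 against 1199.7), Epx (862 against 495) and Mcpt8 (519 against 182), while Cpa3 stood at -0.47, and Siglecf, Ms4a2, Fcer1a and Il5ra were below the floor. The part of these cells in the eotaxin readings was not tested.

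Cxcl9, an interferon-gamma-induced ligand that draws activated T cells through Cxcr3, was close to the floor on both arrays (185 against 198, log2 ratio -0.10). Cxcl11, a ligand of the same receptor, was far below it (16 against 26.8). Cxcr3 lay just below the floor in the allograft sample and lower in the autograft sample (173 against 107). Ifng was below the floor (61.1 against 66.4). None of the 7 T cell markers on the array was above the floor on either array, with summed intensities of 375 and 643. T cells are known to take part in the rejection of allografts. Their markers and Cxcr3 were below the floor in both samples, which does not show that T cells were absent. Of 6 NK cell markers on the array, Nkg7 (374.5 against 216, 0.79) was above the floor in both samples. Gzma (218 against 101) was above it in the allograft sample alone, and the other 4 were below it. The part of these cells in the chemokine readings was not tested.

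The ligands that are made as membrane proteins went in different directions. Cx3cl1, which holds monocytes to endothelium, read 243 on the allograft and 194.5 on the autograft array (0.32), and its other probe sets were below the floor. Cxcl16, a scavenger receptor and ligand of Cxcr6, read 388.5 and 503 (-0.37) by one probe set and 258 and 272.5 (-0.08) by another. Their receptors Cx3cr1 (163 against 146) and Cxcr6 (116 against 134) were below the floor. Cxcl14, a ligand of epithelium and connective tissue without a settled receptor, stood at 1021 against 1371.5 (-0.43), but its second probe set read 247 against 123, above the floor only on the allograft array. Cxcl17, a mucosal ligand, stood at 256 against 289 (-0.17).

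The probe sets of one gene are the one repeat measurement these arrays offer. Over all genes, 1925 had at least a pair of probe sets that passed the floor in both samples, and the SD of the difference between the ratios of such a pair was 0.44. Of the chemokine genes 4 had such a pair, Ccl6, Ccl9, Cxcl16 and Cxcl12, and the sign was shared by the first 3. Most ratios given above are smaller than this SD, and those of Cxcl2, Ackr3, Ccl12, Ccr1, Ccl2 and Ccl3 exceed it. Cxcl2, Ackr3, Ccl12, Ccl2 and Ccl3 have 1 probe set each, so none of them has a second reading, and the second probe set of Ccr1 did not pass the floor.

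**Figure D4:**
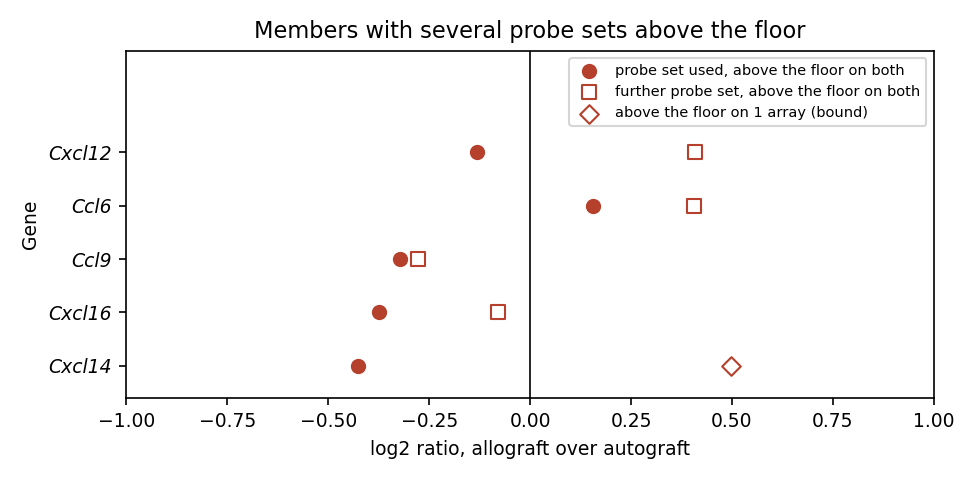
Log2 ratio of allograft over autograft for the 5 genes with several probe sets above the floor. Filled circles are the probe sets used, squares further probe sets above the floor in both samples, and the diamond a bound from 1 array. Ccl6, Ccl9 and Cxcl16 keep their sign, whereas Cxcl12 and Cxcl14 have probe sets on both sides of 0.

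Ligands and receptors of lymphoid tissue and of tissue homing were mostly below the floor. Of 17 such genes, Ccl27a, a skin-homing ligand, was above the floor in both samples (205 against 219, -0.09), by a probe set whose suffix marks oligonucleotides that can cross-hybridise, and Cxcl13, which draws B cells into follicles, was above it in the autograft sample alone (162 against 184.5). The B cell receptor Cxcr5 (74.7 against 116), Ccr7 (9.2 against 13.9), which guides cells to lymph nodes, and Ccr6 (171 against 158), the receptor of Ccl20, were below the floor. So were the ligands Ccl1, Ccl17, Ccl20, Ccl22, Ccl25, Ccl28 and Xcl1 and the receptors Ccr4, Ccr8, Ccr9, Ccr10 and Xcr1. The 15 genes of this group below the floor on both arrays had readings between 9.2 and 171 by the probe sets used. By contrast, 8 of 9 B cell markers were above the floor, with a median ratio of 0.15.

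Among the scavenging receptors, Ackr1, the Duffy antigen receptor of venular endothelium and red cell precursors, read almost the same on both arrays, 588 and 592 (log2 ratio -0.01). Beside it, all 9 erythroid markers had ratios above 0, with a median of 0.79, and 7 of 9 endothelial markers above the floor had ratios below 0, with a median of -0.17. The endothelial markers ran from Robo4 at -1.23 to Tek at 0.17, and the erythroid markers from Tfrc at 0.38 to Hemgn at 1.41. The part of either cell type in the Ackr1 reading was not tested. Ackr4, which takes up lymphoid CC ligands, lay just below the floor in the allograft sample (166 against 97.7), and Ackr2, which takes up inflammatory CC ligands, was far below it (23.9 against 51.5).

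Other genes of the family carry older names. Ppbp and Pf4, the platelet chemokines stored in granules, stood at 4005 against 2945 (0.44) and 6036 against 4923 (0.29). Cklf, a chemokine-like factor, stood at 0.32, Ccrl2, a chemokine-binding receptor, at 0.20 and Rarres2, the chemoattractant chemerin, at -0.25. Gpr35 and the chemerin receptor Cmklr1 were below the floor. None of the 6 genes above the floor in this list, which also holds Cxcl17, reached 2-fold, and the median was 0.25.

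Lists of genes downstream of the receptors lay on either side of the median of all genes, which was -0.08. Of 16 genes for G proteins and receptor shut-off, all were above the floor on at least 1 array, 9 had ratios above 0, and the median was 0.15. Gnai2, the main inhibitory G protein of white blood cells, was highest at 0.65 (6913 against 4418), followed by Gng2 (0.58), and Grk5 (-0.29) and Rgs19 (-0.26) were lowest. Signal transduction and motility genes were split 13 against 13 around 0 with a median of -0.04. Rap1a, a GTPase of cell adhesion (0.60), and Fpr2, a formyl peptide receptor (0.56), were highest, and Jak3 (-0.38) and Rhoa (-0.38) lowest. In the NF-kB list 8 of 10 genes above the floor had ratios below 0, with a median of -0.25. Nfkbia, the inhibitor that the pathway itself induces (0.20), and Nfkbib (0.01) were highest, and Ikbkb, a kinase that marks such inhibitors for breakdown (-0.52), and the adaptor Myd88 (-0.41) lowest. No gene of these lists reached 2-fold.

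Of the cytokines that induce chemokines 6 of 17 were above the floor on at least 1 array, 4 of them with ratios above 0. Il33 (531 against 329, 0.69) and Il18 (808 against 501, 0.69) were highest, and Tgfb1 (758.5 against 1123, -0.57) and Csf1 (-0.31) lowest. Adhesion genes had a median of -0.19 over 10 members, with Vcam1 (0.72) and Selp (0.62), which slow white cells on endothelium, highest and the integrin Itgb1 (-0.56) and Icam2 (-0.43) lowest.

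Chemokines act while bound to heparan sulfate on cell surfaces, and proteases trim them. The list of such genes had a median of -0.21 over 16 genes above the floor, 10 of them below 0. The protease genes Ctsg (2429 against 1472, 0.72) and Adam10 (0.58) were highest, and Ctsg lay just above the upper limit of the central 95% of all genes. Lowest were Sdc2, a heparan sulfate proteoglycan (1049.5 against 1692, -0.69), and Anpep, an aminopeptidase (-0.55). The proteases did not share a direction, with Elane at 0.40 and Adam17 at -0.26. Dpp4, which inactivates Cxcl12, was below the floor, and no gene of this list was 2-fold apart.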

How the data were processed

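Each array has 1 deposited linear intensity for every probe set. What the authors did to make them is not given in the sources used here. The trimmed means (2% at each end) of 500.2 and 500.1 lay within 10%, so the deposited intensities were used unscaled. Control probe sets (64) were left out. Of 22626 others, 20380 had 1 symbol, 691 several and 1555 none; all 52 Entrez identifiers matched RefSeq (GRCm38.p6) under the same symbol. One gene is not reported here. Where a gene has several probe sets, the brightest on average stands for it. Values below the floor were set to it before log2, so ratios with 1 array below it are bounds. No test was run, and depth has no counterpart on arrays: their number limits precision. The genes, lists and settings were chosen with earlier results of these data known. All chemokine and receptor genes above the floor were named, with the 2 highest and 2 lowest of each pathway list among genes above the floor in both samples; further list genes were chosen after their values were seen. The counting was tested on simulated data with large changes in bright genes only. That run does not test small differences or readings near the floor. Python 3.11.15, numpy 2.4.6, pandas 2.3.3, statsmodels 0.14.6 and matplotlib 3.10.9 were used.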

Additional observations from a re-analysis of the deposited data

Results flagged for a closer look

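A signal above the floor on both arrays appeared in a pair of probe sets outside the comparison, because their annotation names several genes. The probe set for Ccl21a, Ccl21b, Ccl21c, Ccl21d and copies of them, ligands of Ccr7 made by lymphatic vessels, read 912 on the allograft and 866 on the autograft array (log2 ratio 0.07). The probe set for Ccl27a, Ccl27b and related copies read 346 and 321 (0.11), while the probe set annotated to Ccl27a, whose suffix marks oligonucleotides that can cross-hybridise, stood at -0.09. These probe sets cannot tell the copies apart. The further shared ones, for the Ccl27 and the Ccl19 copies, were below the floor.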

How the results depend on the processing

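The count of 19 genes above the floor on both arrays was 37 with the floor at the 25th and 7 at the 75th percentile, and 15 to 19 under the other alternatives. Cxcl2 passed 2-fold, giving 1 higher gene instead of 0, after quantile normalization, after centring on the median, at a common 75th percentile and after removal of the intensity trend by lowess, which was chosen after seeing the data. At 1.5-fold there were 2 higher and 2 lower, and at 4-fold 0. Lower genes numbered 1 with the floor at the 25th percentile, Cxcl1, against 2.25% of all genes, and 3 with no floor and 16 added, Cxcl1, Ccl1 and Ccl22, against 3.45%. The ligand median of -0.09 was 0.037 after quantile normalization and 0.015 with the dimmest probe set. The receptor median of 0.06, over 4 genes, was -0.19 with no floor, 0.41 with the dimmest probe set and -0.28 without shared probe sets. With no floor or another probe set, other genes enter these medians. Some alternatives could not move a ratio, so the next count overstates stability. A lower floor leaves these 19 genes as they were. Averaging or taking the dimmest returns the same value for a gene with 1 probe set. Ccr1, Ccr2 and Cx3cl1 have no ratio by their dimmest probe set. Averaging put Ccr2 and Cx3cl1 below the floor on both arrays, and the resulting ratios of 0.0 were counted as small moves. Of 174 ratios of the 19 genes under the alternatives, 169 moved by less than 0.44. Among the other 5 were Cxcl2 (0.10) and Ackr3 (0.20) with the floor at the 75th percentile, where both values are bounds. The rest were Cxcl12 (0.41) and Cxcl14 (0.50) with the dimmest probe set, and Cxcl14 without shared probe sets (0.50). The values of Cxcl14 are bounds too. The ratios of 5 genes, Ackr1, Ccl27a, Cxcl9, Cxcl12 and Cxcl14, changed sign under at least 1. No paired analysis was possible because each graft type has 1 array.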
